A study of Homo sapiens with 8 samples.

Results

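The feedback inhibitors of NF-kB were measured as RNA in SupB15 cells treated with the compound 1035, with doxorubicin, or with both. The members were the rows named NFKBIA, NFKBIB, NFKBIE, TNFAIP3, TNIP1, CYLD and MIR146A, 7 of 16608 genes with counts in all 8 libraries. They were chosen by name and also selected on measured values, since earlier results of these same libraries were known: NFKBIA, TNFAIP3 and MIR146A were the 3 genes called in the interaction of both compounds. Levels, log2 fold changes and calls of the members are therefore given as a description, without p-values.

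SupB15 is a human cell line of Philadelphia chromosome positive precursor B-cell acute lymphoblastic leukaemia. The 4 treatments had 2 libraries each, from samples that the design text calls independent. One group received 1035 at 2 µM for 36 h and then doxorubicin at 0.1 µM for 10 h (the combination). Another was kept 46 h in 2 µM 1035, the third 10 h in 0.1 µM doxorubicin, and the last 46 h in DMSO, a solvent. The series title calls 1035 an inhibitor of histone deacetylases, and doxorubicin is an anthracycline that damages DNA. The labels do not say if 1035 remained in the medium over the last 10 h of the combination, so an end of exposure to it and the added doxorubicin cannot be told apart. The length of culture in doxorubicin (10 h) and in DMSO (46 h) cannot be told apart from the drug either.

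NF-kB is a family of dimeric transcription factors that IkB proteins hold in the cytoplasm. The IKK complex, activated through chains of ubiquitin that are built at receptor complexes or after DNA damage, phosphorylates IkB, which is then degraded, and NF-kB enters the nucleus. Several of its target genes encode inhibitors of the same route, so that a signal ends itself: IkB is made again, ubiquitin-editing enzymes remove the chains, and a microRNA lowers the receptor adaptors. In B cells, loss of such inhibitors is known from lymphomas with constant NF-kB activity.

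The sequences of the 3 members that carried the interaction are shown because NF-kB dimers bind a short element, the kB consensus, in the DNA upstream of their target genes. Each line gives 150 bases before the transcription start in RefSeq (GRCh38.p14), 5′ to 3′ on the strand of the gene, with matches to the 10-base consensus on either strand in capitals.
NFKBIA, chr14:35404750-35404899, minus strand: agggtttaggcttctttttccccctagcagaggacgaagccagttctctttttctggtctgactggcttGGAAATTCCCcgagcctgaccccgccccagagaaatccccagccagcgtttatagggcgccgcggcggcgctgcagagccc
TNFAIP3, chr6:137867109-137867258, plus strand: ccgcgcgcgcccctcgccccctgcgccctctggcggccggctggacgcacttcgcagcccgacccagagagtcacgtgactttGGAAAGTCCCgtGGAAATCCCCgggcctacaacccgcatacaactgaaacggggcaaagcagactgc
MIR146A host transcript (MIR3142HG), chr5:160468101-160468250, plus strand: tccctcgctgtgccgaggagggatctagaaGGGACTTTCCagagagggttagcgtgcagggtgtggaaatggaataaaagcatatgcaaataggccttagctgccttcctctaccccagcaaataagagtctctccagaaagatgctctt
The match lay 81 to 72 bases before the start of NFKBIA and 120 to 111 bases before that of the MIR146A host. TNFAIP3 held a pair of matches, at 67 to 58 and at 55 to 46 bases. RefSeq windows of 300 bases (250 before and 50 after a start) were found for 6 members, and each of the 6 had a match in at least 1 of its windows. Among all genes with a window, 1937 of 27305 (7.09%) had a match. A pair of overlapping matches in NFKBIB was 1 stretch read on both strands. NFKBIE had no entry. A match is a description of letters, not of binding.

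The row named MIR146A is a long non-coding RNA, MIR3142HG in GENCODE v29 by its identifier, from which the microRNA is cut. The mature microRNA was not measured. Its sequence is given because the seed (bases 2 to 8, in capitals) sets which messenger RNAs it pairs with.
hsa-miR-146a-5p, chr5:160485372-160485393, plus strand (RefSeq, GRCh38.p14): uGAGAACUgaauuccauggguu
Of 2545 mature microRNAs in the RefSeq table, 3 have this seed: miR-146a-5p, miR-146b-5p and miR-7153-5p.

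Depth was 11760542 to 18144670 reads on genes per library. All 10 markers of precursor B cells exceeded 1 CPM in every library. CPM is reads of a gene scaled to library size, for the markers by library totals without TMM. The 5 T cell and 4 erythroid markers were not among the genes kept. The summed precursor B markers stood at 3029 to 3067 CPM in the combination and 3158 to 3199 in 1035, against 3920 to 4177 in doxorubicin and 3997 to 4165 in DMSO. IGLL1, a part of the surrogate light chain, stood at 224 to 271 CPM in the 4 libraries with 1035, against 754 to 838 in the 4 without. Of the NK cell, monocyte and stromal markers, 5 of 14 were kept (NKG7, LYZ, CSF1R, PDGFRB and COL1A1), and the defining NCAM1, CD14 and COL1A2 were not. The summed stromal markers stood at 66.5 to 68.5 CPM in the combination and 66.6 to 72.7 in 1035, against 26.0 to 30.2 in doxorubicin and 25.0 to 26.6 in DMSO, nearly all from PDGFRB. The summed monocyte markers stood at 20.8 and 21.4 CPM in the combination and 18.5 and 20.2 in 1035, against 14.3 and 16.5 in doxorubicin and 14.1 and 15.3 in DMSO, and NKG7 at 9.76 to 12.03 CPM in all. The part of all these markers in the results was not tested. In bulk RNA, fewer cells of a kind and less RNA per cell cannot be told apart. All 7 members passed the filter on low counts. Levels below are CPM for replicates 1 and 2, here scaled between libraries by TMM. Log2 fold changes carry the SE of an edgeR quasi-likelihood fit to all 8 libraries.

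NFKBIA encodes IkBα, the best-known inhibitor among the target genes of NF-kB. It had 150 and 143 CPM in the combination, 67.8 and 71.6 in 1035, 131 and 124 in doxorubicin, and 98.5 and 96.2 in DMSO. No pair of groups overlapped, and 1035 alone was the lowest and the combination the highest. Against DMSO, the log2 fold change was 0.59 ± 0.06 for the combination, -0.48 ± 0.07 for 1035 and 0.39 ± 0.06 for doxorubicin. The combination stood 1.07 ± 0.06 above 1035 (a fold of 2.10), called. Against doxorubicin the difference was 0.20 ± 0.06, and it was no longer called without replicate 1 of the combination.

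NFKBIB encodes IkBβ, a slower inhibitor that is not a strong NF-kB target. It had 19.9 and 18.1 CPM in the combination, 16.8 and 21.5 in 1035, 23.3 and 21.3 in doxorubicin, and 22.9 and 19.6 in DMSO. The groups overlapped except for the combination and doxorubicin, which differed by -0.24 ± 0.11 on the log2 scale, with a 95% interval of -0.46 to -0.01, not called. Without replicate 2 of 1035, the log2 fold change of 1035 against DMSO was -0.35 and was called, against -0.16 ± 0.11 with all libraries. SIRT2 is annotated on the opposite strand at this locus, and no source used here gives the strand setting of the counting. SIRT2 averaged 59.5 ± 3.70 CPM in the combination, 58.9 ± 0.834 in 1035, 46.3 ± 1.11 in doxorubicin and 46.7 ± 1.26 in DMSO (SD, n = 2 each).

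NFKBIE encodes IkBε, known for restraining REL-containing dimers in B cells. It had 25.6 and 26.4 CPM in the combination, 21.0 and 22.6 in 1035, 20.9 and 18.2 in doxorubicin, and 14.9 and 17.9 in DMSO. Every treated group lay above DMSO, and the combination lay above both single treatments. The log2 fold change against DMSO was 0.66 ± 0.11 for the combination and 0.41 ± 0.11 for 1035, both called, and 0.26 ± 0.11 for doxorubicin, not called. Without replicate 1 of DMSO, the value for 1035 was 0.28 and was not called.

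TNFAIP3 encodes a ubiquitin-editing enzyme that takes apart the chains on which IKK is activated. It had 302 and 327 CPM in the combination, 192 and 185 in 1035, 202 and 200 in doxorubicin, and 173 and 177 in DMSO. Both single treatments lay slightly above DMSO, and the combination stood apart from all 6 other libraries. Against DMSO, the log2 fold change was 0.85 ± 0.06 for the combination (called), 0.11 ± 0.06 for 1035 and 0.21 ± 0.06 for doxorubicin (neither called). The value for doxorubicin became a call in DESeq2 (0.20), without replicate 2 of 1035 (0.21) and without replicate 1 of doxorubicin (0.20), and those for both drugs became calls with library totals in place of TMM (1035 0.18, doxorubicin 0.24). The combination was 0.74 ± 0.06 above 1035 and 0.64 ± 0.06 above doxorubicin, both called.

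An antisense RNA, RP11-356I2.4 (ENSG00000237499), is annotated on the opposite strand at the TNFAIP3 locus. It was looked up because of the overlap, after its values could be seen. It had 17.5 and 17.4 CPM in the combination, 24.5 and 27.1 in 1035, 54.0 and 54.6 in doxorubicin, and 54.2 and 54.0 in DMSO. It was lower in the 4 libraries with 1035 than in the 4 without: it fell by 1.07 ± 0.09 in 1035 and by 1.63 ± 0.09 in the combination against DMSO on the log2 scale, and by 0.56 ± 0.10 in the combination against 1035, where TNFAIP3 was higher. These 3 calls had adjusted p = 1.25e-13, 3.16e-18 and 7.15e-04 in edgeR's quasi-likelihood test with Benjamini-Hochberg adjustment. Without a stated strand setting, reads of a gene and of its antisense partner cannot be told apart.

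TNIP1 encodes a ubiquitin-binding adaptor that brings the TNFAIP3 enzyme to its targets. It had 82.1 and 84.7 CPM in the combination, 70.0 and 77.4 in 1035, 75.7 and 74.0 in doxorubicin, and 72.2 and 71.7 in DMSO. The combination lay above the other groups, and 1035 overlapped with both doxorubicin and DMSO. Only the combination against DMSO was called, at 0.21 ± 0.07 (95% interval 0.08 to 0.35), and the call was lost without replicate 2 of DMSO (0.21) or replicate 2 of the combination (0.19).

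CYLD encodes a deubiquitinase that trims linear and lysine-63-linked chains, and it is a tumour suppressor. It had 112 and 111 CPM in the combination, 100.2 and 87.4 in 1035, 61.0 and 62.7 in doxorubicin, and 54.9 and 54.6 in DMSO. The 4 libraries with 1035 lay well above the 4 without. The log2 fold change against DMSO was 1.03 ± 0.07 for the combination and 0.78 ± 0.07 for 1035, both called, and 0.17 ± 0.07 for doxorubicin, not called. The combination exceeded 1035 by 0.25 ± 0.07, not called, which became a call without replicate 1 of 1035 (0.35) or without either doxorubicin library (0.25 each).

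The MIR146A host transcript had 46.6 and 47.8 CPM in the combination, 25.9 and 23.5 in 1035, 15.6 and 13.2 in doxorubicin, and 12.4 and 16.3 in DMSO. Doxorubicin alone overlapped with DMSO, 1035 lay above both, and the combination was the highest. Against DMSO, the log2 fold change was 1.72 ± 0.11 for the combination, 0.79 ± 0.11 for 1035 (both called) and 0.02 ± 0.12 for doxorubicin, whose 95% interval of -0.23 to 0.26 still allows a small change. The combination was 0.93 ± 0.10 above 1035 and 1.70 ± 0.11 above doxorubicin, the widest difference of any member from doxorubicin alone (a fold of 3.25).

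**Figure D1:**
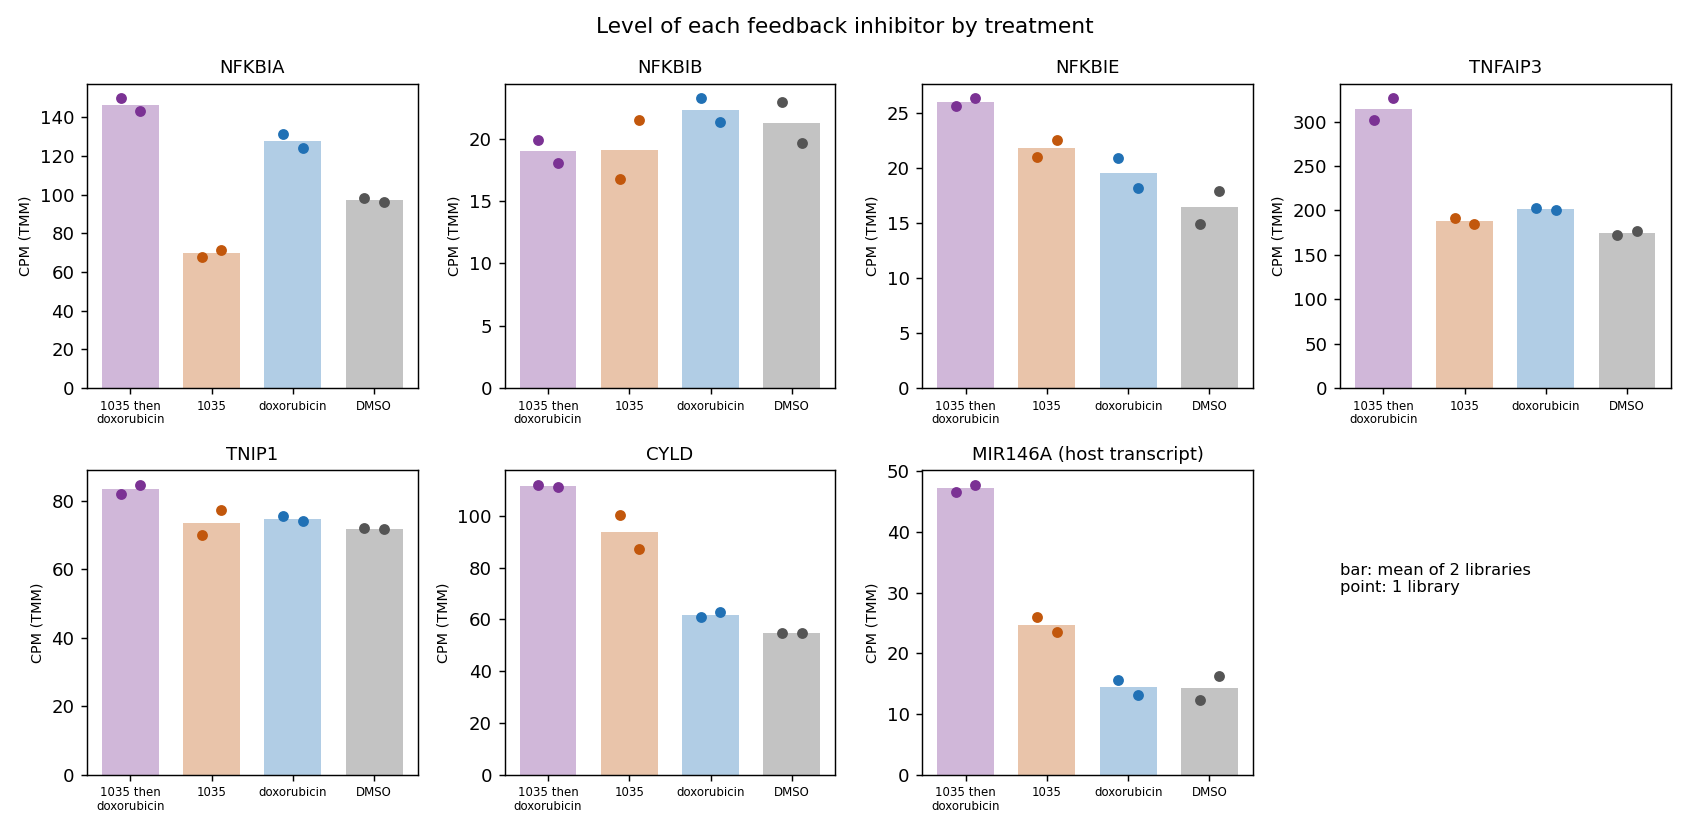
Level of each member in CPM (TMM-scaled, axes from 0) by treatment, with a bar for the mean of 2 libraries and a point for each library. NFKBIA is lowest in 1035 alone (67.8 and 71.6 CPM), CYLD is high in both groups with 1035, and TNFAIP3 (302 and 327 CPM) and MIR146A (46.6 and 47.8 CPM) stand apart in the combination.

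Counts of calls (adjusted p under 0.05 over all 16320 genes tested) are set beside the share of all genes called in the same direction. Because the choice of members used these contrasts, nothing is read from the difference. For the combination against DMSO, 6 of 7 members were called higher and 0 lower, where 24.5% and 24.7% of all genes were. Against doxorubicin, 5 were called higher and 0 lower in the combination, with 21.8% and 22% of all genes. Against 1035, 3 were higher and 0 lower in the combination, with 0.349% and 0.147% of all genes. For 1035 against DMSO, 3 were higher (NFKBIE, CYLD and MIR146A) and 1 lower (NFKBIA), with 24.2% and 24.8% of all genes. For doxorubicin against DMSO, 1 was higher (NFKBIA) and 0 lower, with 0.784% and 0.545% of all genes. The median log2 fold change of all genes was between -0.01 and 0.01 in these comparisons and in the interaction, which TMM scaling largely fixes. The comparisons share libraries and are not independent of each other. Single libraries moved the totals of the 2 smaller comparisons. For doxorubicin against DMSO, 217 genes were called, with 33 and 65 without replicate 1 or 2 of DMSO, 1180 and 98 without replicate 1 or 2 of doxorubicin, and 116 without either combination library. For the combination against 1035, 81 were called, with 50 and 30 without replicate 1 or 2 of the combination, 45 without replicate 2 of 1035 and 143 without either doxorubicin library.

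**Figure D2:**
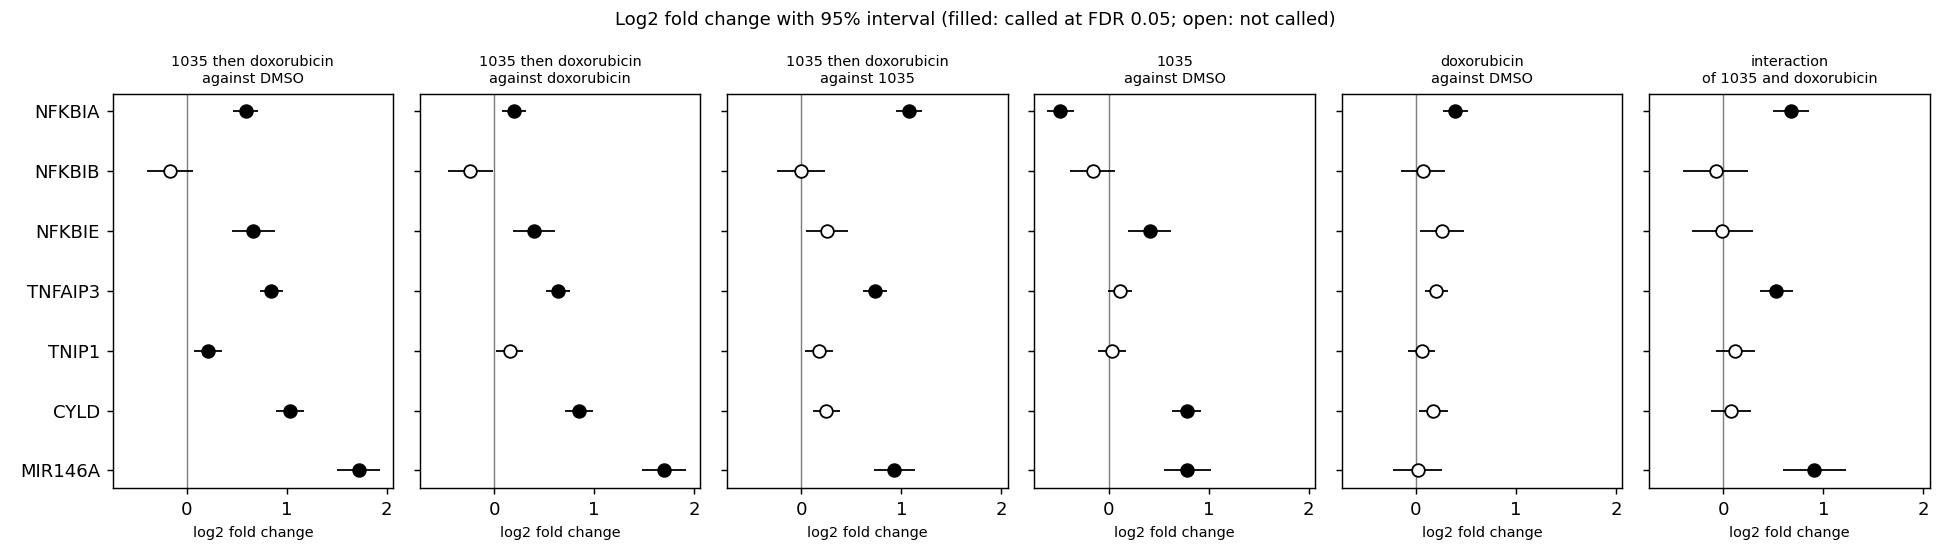
Log2 fold change of each member with its 95% interval in the 5 comparisons and the interaction, filled where called and open where not. NFKBIA changes side between 1035 against DMSO (-0.48) and the combination against 1035 (1.07), and NFKBIB is open in all panels.

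The interaction asks whether the combination differed from 1035 by another amount than doxorubicin differed from DMSO, on the log2 scale. Over all 16320 genes, 3 were called higher (0.0184%) and 0 lower (0%) by edgeR, with 786 at an unadjusted p under 0.05 (349 higher and 437 lower), and DESeq2 called 2 higher and 0 lower. The 3 were NFKBIA, TNFAIP3 and MIR146A, on which the members were selected. For NFKBIA, single effects of -0.48 for 1035 and 0.39 for doxorubicin sum to -0.09, and the combination had 0.59, a difference of 0.68 ± 0.09. For TNFAIP3 the sum was 0.31 and the combination had 0.85 (interaction 0.53 ± 0.08). For MIR146A the sum was 0.81 and the combination had 1.72 (interaction 0.91 ± 0.16).

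The other 4 members were not called in the interaction. NFKBIE summed to 0.67 and had 0.66 in the combination (interaction -0.01 ± 0.15, 95% interval -0.31 to 0.30). CYLD summed to 0.95 and had 1.03, TNIP1 to 0.09 and 0.21, and NFKBIB to -0.09 and -0.16. Their intervals were -0.12 to 0.27 for CYLD, -0.07 to 0.32 for TNIP1 and -0.40 to 0.25 for NFKBIB, and include values of moderate size. The antisense RNA at TNFAIP3 ranked 5 of 16320 by p at -0.57 ± 0.13, not called.

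The call of NFKBIA in the interaction held under all 14 alternatives run, including each library left out. TNFAIP3 lost its call without replicate 2 of DMSO (0.51) or replicate 2 of the combination (0.47). MIR146A lost it in DESeq2 (0.92), without replicate 2 of DMSO (0.70), replicate 2 of 1035 (0.85), and replicates 1 (0.93) and 2 (0.90) of the combination. Over all genes, 1 was called without replicate 2 of DMSO, 6 without replicate 1 of 1035 and 239 without replicate 1 of doxorubicin. The number of genes called in the interaction therefore rests on single libraries. Every alternative kept the 3 values positive, but all reuse the libraries on which these members were selected. The alternatives thus describe the values and lend them no support.

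**Figure D3:**
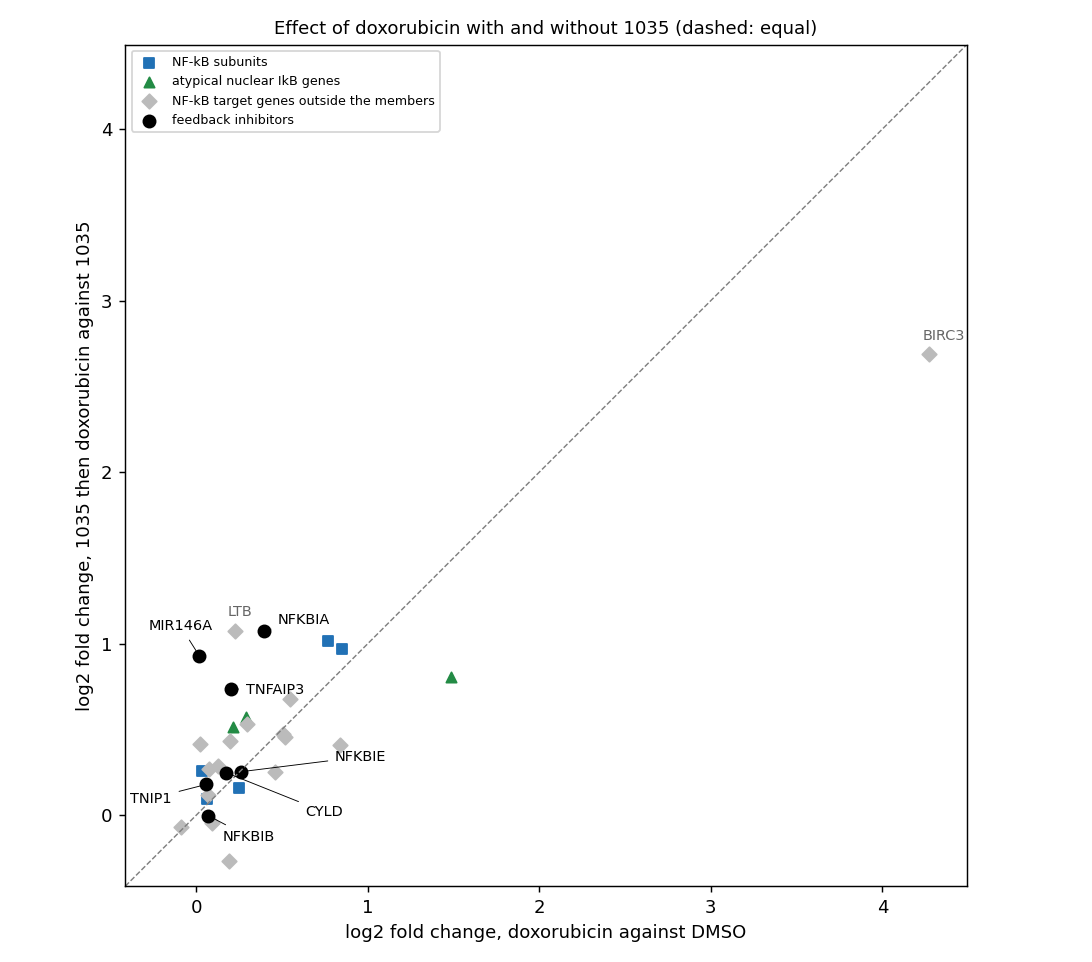
Log2 fold change of the combination against 1035 (vertical) by that of doxorubicin against DMSO (horizontal), for the members (black), NF-kB subunits, atypical IkB genes and other NF-kB target genes, with a dashed line of equal values. NFKBIA (0.39 and 1.07), TNFAIP3 (0.21 and 0.74) and MIR146A (0.02 and 0.93) lie above the line, as does LTB, while BIRC3 at the far right rests on 0 and 0.13 CPM in DMSO.

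Levels of different genes are compared per length, in FPKM (counts scaled by gene length and library size, as deposited). TNFAIP3 and NFKBIA were the most abundant members, at 63.6 ± 4.10 and 62.8 ± 1.52 FPKM in the combination, 37.8 ± 0.751 and 29.6 ± 1.28 in 1035, 39.7 ± 0.0685 and 53.2 ± 1.77 in doxorubicin, and 33.6 ± 0.671 and 39.6 ± 0.556 in DMSO (SD, n = 2). Their order was thus TNFAIP3 first in 1035, NFKBIA first in doxorubicin and DMSO, and no separation in the combination. TNIP1 came next at 11.3 to 13.8 FPKM on average, except in the combination, where the MIR146A host reached 20.8 ± 0.539 FPKM and lay above it. Below these in DMSO came NFKBIB (8.86 ± 0.947), NFKBIE (6.21 ± 0.821), the MIR146A host (6.03 ± 1.20) and CYLD (4.08 ± 0.00535 FPKM), of which NFKBIE and the host overlapped. CYLD came last in doxorubicin (4.72 ± 0.134) and in 1035 (7.29 ± 0.671), but in 1035 it overlapped with NFKBIB (7.25 and 9.37 in its libraries). In the combination NFKBIB (8.31 ± 0.493) and CYLD (8.75 ± 0.0236) were the lowest and did not differ beyond their spread.

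Within the IkB genes, NFKBIA supplied most of the summed FPKM. Its share was 77.1% ± 0.242 in the combination, 63.7% ± 1.71 in 1035, 75.8% ± 0.664 in doxorubicin and 72.5% ± 0.114 in DMSO. The NFKBIE share stood out in 1035, at 18.5% ± 0.265, against 12.7% ± 0.632 in the combination, 10.7% ± 0.508 in doxorubicin and 11.4% ± 1.64 in DMSO. Summed IkB over summed NF-kB subunits was 1.48 ± 0.0871 in the combination, 1.14 ± 0.0939 in 1035, 1.35 ± 0.0428 in doxorubicin and 1.24 ± 0.0146 in DMSO. The 1035 libraries (1.07 and 1.20) lay below both DMSO libraries (1.22 and 1.25) by little, and the combination (1.54 and 1.42) lay above all others. The spread of 2 libraries limits these ratios, and no test was run on them.

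Over the summed REL, RELA and RELB alone, the subunits with a transactivation domain, summed IkB was 3.63 ± 0.325 in the combination, 2.61 ± 0.246 in 1035, 3.69 ± 0.332 in doxorubicin and 3.56 ± 0.111 in DMSO. By that ratio the combination overlapped with doxorubicin and DMSO, and 1035 lay below all 6 other libraries. The ratio of NFKBIA to RELA, the subunit it holds in the cytoplasm, was 5.82 ± 0.421 in the combination, 2.96 ± 0.0632 in 1035, 5.51 ± 0.321 in doxorubicin and 4.40 ± 0.102 in DMSO. The combination (6.11 and 5.52) and doxorubicin (5.74 and 5.29) overlapped, and 1035 was again the lowest. TNFAIP3 over its adaptor TNIP1 was 4.60 ± 0.160 in the combination and lay between 2.93 and 3.35 in the 6 other libraries. These are ratios of RNA within a library and say nothing of protein.

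**Figure D4:**
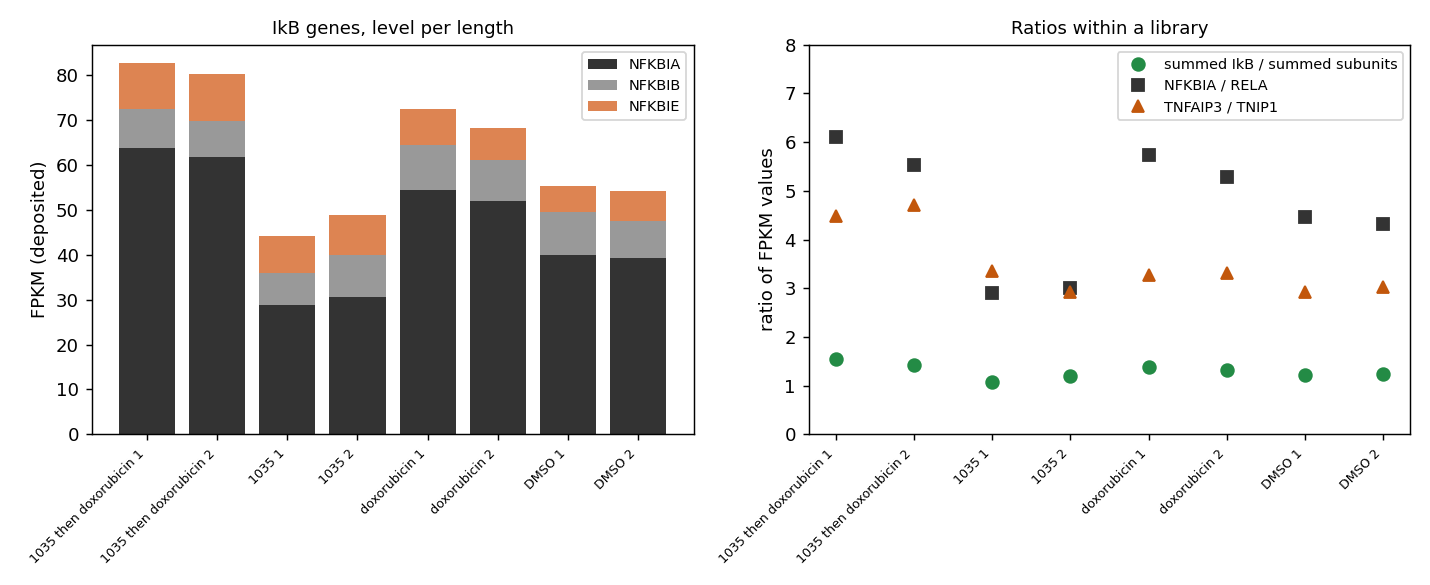
Left, deposited FPKM of the IkB genes stacked by library, and right, ratios of FPKM within each library. The NFKBIA to RELA ratio is lowest in the 1035 libraries (mean 2.96), and the TNFAIP3 to TNIP1 ratio is highest in the combination (4.49 and 4.72).

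The remaining genes of the pathway were read from lists put together with earlier results of these libraries known, so their counts are no independent evidence of a direction. Of the 5 NF-kB subunits, which form the dimers that the members restrain, 2 rose and 1 fell in 1035 against DMSO. By edgeR at an adjusted p under 0.05, NFKB2 (0.69 ± 0.11) and REL (0.49 ± 0.08) rose, and NFKB1 (-0.64 ± 0.06) fell. Of all genes, 24.2% were called higher and 24.8% lower. RELA had 0.09 ± 0.08 and RELB -0.07 ± 0.14, not called. In doxorubicin against DMSO, where 0.784% of all genes were called higher, NFKB2 (0.85 ± 0.11) and RELB (0.77 ± 0.12) rose. Both also rose in the combination against 1035, NFKB2 by 0.97 ± 0.10 and RELB by 1.01 ± 0.13. There 0.349% of all genes were called higher. NFKB1 rose by 0.26 ± 0.06, a call that was lost with DESeq2's size factors and without any 1 of the DMSO, 1035 or combination libraries. DESeq2 gave NFKB2 and RELB no adjusted p in doxorubicin against DMSO, and 2 calls (NFKB2 and RELB) in the combination against 1035. The interaction was 0.11 ± 0.15 for NFKB2 (95% interval -0.18 to 0.41) and 0.24 ± 0.18 for RELB (-0.12 to 0.61), not called, and these intervals do not show that doxorubicin acted alike with and without 1035.

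The 3 atypical IkB genes, whose proteins act in the nucleus, all rose in 1035 against DMSO, where 24.2% of all genes were called higher. Their median log2 fold change was 0.77 beside 0.01 for all genes. DESeq2 called 2 of the 3 higher. BCL3 had only 0.45 and 0.40 CPM in DMSO, beside 1.66 and 2.84 in 1035, so its folds against DMSO rest on few reads. BCL3 had 2.37 ± 0.48, NFKBID 0.77 ± 0.18 and NFKBIZ 0.30 ± 0.10, and the call of NFKBIZ was lost without replicate 1 of DMSO or replicate 2 of 1035. In the combination against 1035, where 0.349% of all genes were called higher, NFKBIZ was the 1 of 3 called, at 0.57 ± 0.09. It was not called without replicate 2 of the combination (0.48). In doxorubicin against DMSO edgeR called 0 of the 3, beside 217 of all 16320 genes. At an unadjusted p under 0.05 there were 2, beside 2169 of all genes, and DESeq2 gave none of the 3 an adjusted p. There BCL3 (1.49 ± 0.50) became a call without replicate 1 of doxorubicin.

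Among 25 receptor adaptors and IKK pathway kinases, 7 rose, 6 fell and 12 were not called in 1035 against DMSO, beside 24.2% of all genes higher and 24.8% lower, and their median was -0.03. These shares are close to those of all genes. TRAF5, an adaptor of TNF family receptors, rose by 1.38 ± 0.29. IRAK1, a kinase downstream of Toll-like receptors, had -0.94 ± 0.06 and MALT1, a paracaspase protease, -0.64 ± 0.07, both lower. The number that rose was 4 without either DMSO library. In doxorubicin against DMSO 0 of 25 were called by edgeR, beside 217 of all 16320 genes. At an unadjusted p under 0.05 there were 4, beside 2169 of all genes. DESeq2 also called 0, but gave 16 of the 25 no adjusted p, and edgeR called 2 higher without replicate 1 of doxorubicin. In the combination against 1035, where 0.349% of all genes were called higher, the 1 called was TRAF3, a negative regulator of the alternative NF-kB route. It had 0.54 ± 0.10, and was not called without replicate 1 of 1035 or replicate 2 of the combination. TRAF3 was named after its value was seen.

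The linear ubiquitin ligase LUBAC builds chains that TNFAIP3 and TNIP1 bind and CYLD cuts. Of its 3 genes, SHARPIN rose in 1035 against DMSO (0.27 ± 0.08), and RNF31 (0.10 ± 0.07) and RBCK1 (0.18 ± 0.08) were not called. Among all genes 24.2% were called higher in that comparison. SHARPIN was not called without replicate 2 of 1035 (0.19), and RBCK1 was called without either doxorubicin library (2 genes then). In doxorubicin against DMSO and in the combination against 1035, edgeR called 0 of the 3, beside 217 and 81 of all 16320 genes. At an unadjusted p under 0.05 there were 0, beside 2169 and 1110 of all genes. DESeq2 called 0 as well, but gave 2 of the 3 (SHARPIN and RBCK1) no adjusted p in doxorubicin against DMSO.

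Of 16 other inhibitors of the pathway that were tested, 6 rose, 4 fell and 6 were not called in 1035 against DMSO, beside 24.2% of all genes higher and 24.8% lower, with a median of 0.01. The share that fell equals that of all genes to within 1 gene. OTUD7B, a deubiquitinase of the alternative route, had 1.36 ± 0.20 and PDLIM2, a ubiquitin ligase for RELA, 1.18 ± 0.21. USP18, a protease that removes ISG15, had -0.63 ± 0.18 and SIGIRR, a receptor that dampens Toll-like receptor signals, -0.50 ± 0.11. The call of USP18 was lost without replicate 1 of 1035 (-0.46). The number that fell was 2 without replicate 1 of DMSO. In the combination against 1035, where 0.349% of all genes were called higher, the 1 called was ZC3H12A, an RNase that degrades cytokine messages. ZC3H12A had 0.60 ± 0.15 and was named after its value was seen. It was not called without any 1 of the DMSO, 1035 or combination libraries (0 of 16 then), nor by DESeq2.

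Of 16 NF-kB target genes outside the members that were tested, 14 rose and 2 fell in 1035 against DMSO. Of all genes, 24.2% were called higher and 24.8% lower. The median log2 fold change of the 16 was 1.16 beside 0.01 for all genes. DESeq2 called 12 higher and 2 lower. The 14 include LTA (0.38 and 0.40 CPM in DMSO) and BIRC3, which had too few reads in DMSO for their direction to count for much. With a library left out, 12 to 14 rose. CCR7, a homing receptor, had 26.5 and 27.7 CPM in the combination, 22.8 and 17.8 in 1035, 3.64 and 4.12 in doxorubicin, and 2.42 and 1.85 in DMSO. BIRC3, which encodes a ubiquitin ligase of TNF receptor complexes, had 2.89 and 3.64 CPM in the combination, 0.29 and 0.73 in 1035, 1.46 and 1.37 in doxorubicin, and 0 and 0.13 in DMSO, too few reads for a fold against DMSO, and its call for 1035 against DMSO was lost without replicate 1 of DMSO or replicate 2 of 1035. CFLAR, an inhibitor of caspase-8, had -0.44 ± 0.07 and SOD2, a mitochondrial superoxide dismutase, -0.28 ± 0.06 in 1035 against DMSO. NFKBIA, with -0.48, thus had the direction of the 2 target genes that fell and not of the 14 that rose.

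In the combination against 1035, 6 of the 16 targets rose and 0 fell, beside 0.349% of all genes higher and 0.147% lower. The median of the 16 was 0.41 beside 0.00 for all genes. The 6 were LTB (1.08 ± 0.13), CD83 (0.68 ± 0.11), TNF (0.53 ± 0.09), CD40 (0.48 ± 0.12), CFLAR (0.29 ± 0.07) and BIRC3. LTB, CD83, TNF and CD40 were named after their values were seen. Without replicate 2 of the combination 2 of the 16 were called, CD40 was not called without any 1 of the 1035 or combination libraries, and CFLAR not in 6 of 10 alternatives. DESeq2 called 3 (LTB, CD83 and TNF) and gave BIRC3 no adjusted p. In doxorubicin against DMSO, where 0.784% of all genes were called higher, BIRC3 and CD83 (0.55 ± 0.14) rose. CD83 was not called without replicate 2 of DMSO, replicate 2 of doxorubicin or either combination library. Of the 68 list genes tested, 0 were called in the interaction by edgeR or by DESeq2. At an unadjusted p under 0.05 there were 6, beside 786 of all 16320 genes. LTB had 0.85 ± 0.22 there and became a call without replicate 1 of doxorubicin.

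The microRNA miR-146a is known to lower TRAF6, a ubiquitin ligase, and IRAK1, both of which carry signals of Toll-like receptors, in human cells. Matches to its seed (complement of bases 2 to 8) were found in the 3′ UTR of TRAF6 at 3 places and of IRAK1 at 2, in the transcript with the longest 3′ UTR in GENCODE v29. None was found in IRAK2. Among 19133 genes, 11.4% had at least 1 such match and 1.57% had 2 or more. The first match of each is printed because it is where the seed above would pair, with the match in capitals.
TRAF6, base 473 of its 3′ UTR, chromosome 11: tgctctagaaagttgAGTTCTCatt
IRAK1, base 40 of its 3′ UTR, chromosome X: aaatccggaagtcaaAGTTCTCatg

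IRAK1 had 126 and 137 CPM in the combination, 127 and 145 in 1035, 261 and 245 in doxorubicin, and 259 and 263 in DMSO. It was lower in all 4 libraries with 1035, with a log2 fold change of -0.94 ± 0.06 for 1035 against DMSO, and had -0.05 ± 0.07 in the combination against 1035, where the MIR146A host was higher by 0.93. TRAF6 had 32.8 and 32.1 CPM in the combination, 33.0 and 29.8 in 1035, 26.0 and 27.3 in doxorubicin, and 26.6 and 24.1 in DMSO. It rose by 0.31 ± 0.09 in 1035 against DMSO, not called without replicate 2 of DMSO or replicate 1 of 1035, so that the 2 targets with matches moved in opposite directions. IRAK2, a kinase related to IRAK1, rose by 2.16 ± 0.59, but had 0.79 and 2.84 CPM in the 1035 libraries and was not called without replicate 2 of 1035 (1.01).

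**Figure D5:**
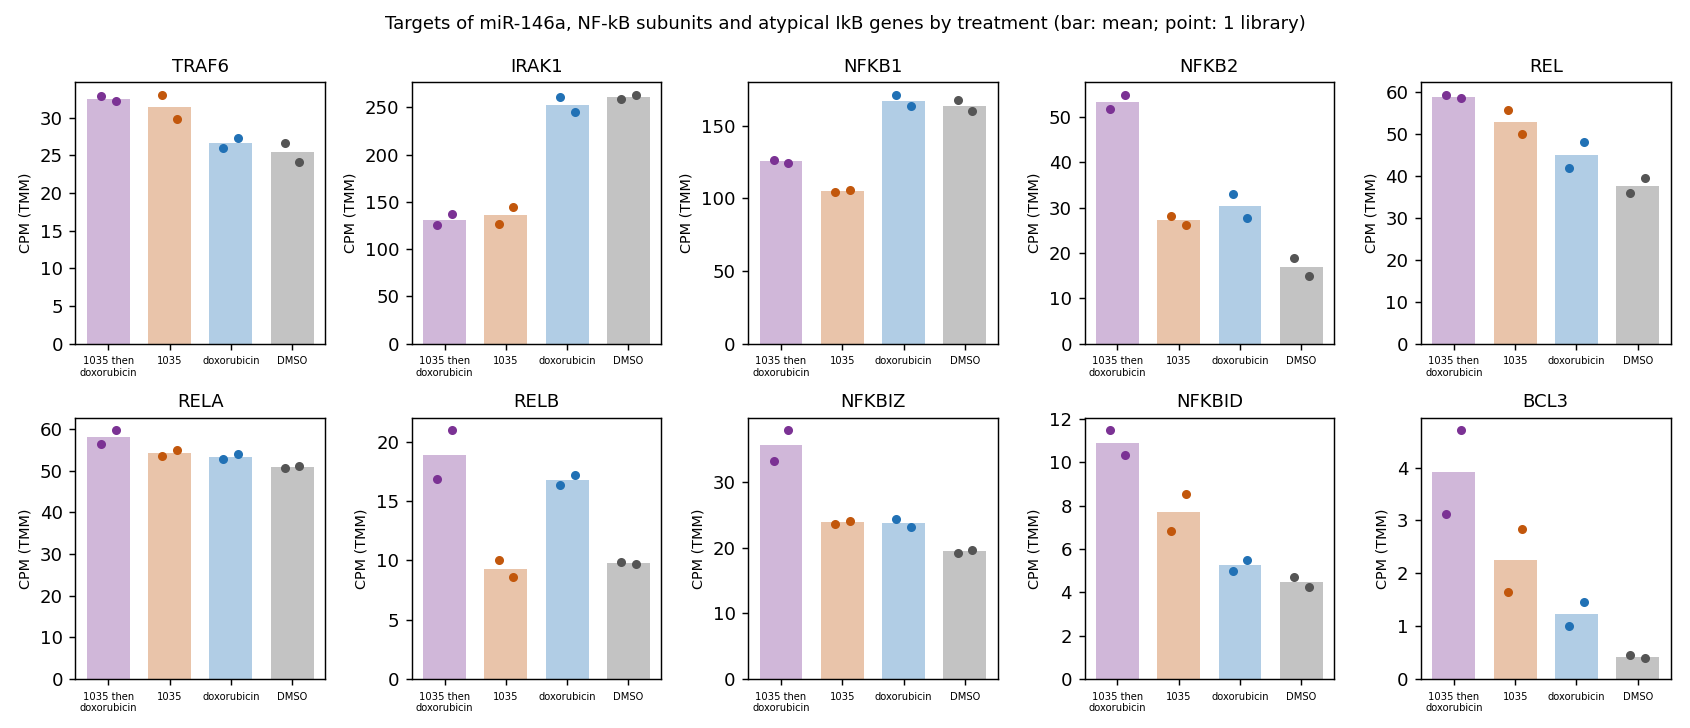
Levels in CPM (TMM-scaled, axes from 0) of TRAF6, IRAK1, the NF-kB subunits and the atypical IkB genes by treatment, with a bar for the mean and a point for each library. IRAK1 (126 to 145 CPM with 1035, 245 to 263 without) and NFKB1 are lower with 1035. NFKB2 and RELB are higher in doxorubicin than in DMSO, and higher in the combination than in 1035.

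The genes whose log2 CPM followed each member most closely over the 8 libraries were found among 14713 genes, by Pearson correlation and as a description: the 8 points form 4 groups and share their treatments. NFKBIA was most like LIMD2 (0.96) and TJAP1 (0.95), NFKBIB like AC016629.8 (0.97) and E2F4 (0.94), and NFKBIE like SUMF1 (0.99) and DHDDS (0.98). TNFAIP3 was most like NFKBIZ (0.97) and SYS1-DBNDD2 (0.96), and TNIP1 like SLC25A5-AS1 (0.98) and ZNF415 (0.95). CYLD was most like AC027763.2 (0.998) and NCOA3 (0.99), and MIR146A like LTB (0.99) and DUSP7 (0.98). How many genes came that close differed widely: 787 genes correlated above 0.95 with CYLD, 40 with MIR146A, 19 with NFKBIE, 6 with TNFAIP3, 4 with TNIP1 and 1 each with NFKBIA and NFKBIB. LTB had 20.1 and 21.2 CPM in the combination, 9.93 and 9.67 in 1035, 5.71 and 4.44 in doxorubicin, and 4.02 and 4.83 in DMSO, the same order of groups as the MIR146A host.

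The authors' deposited table of each of 4 comparisons gave the members log2 fold changes within 0.05 of the values here. Adjusted p-values in the authors' deposited table were under 0.05 for 3 members when the combination was set against either single treatment. They were under 0.05 for 4 when 1035 and for 1 when doxorubicin was set against DMSO. Against doxorubicin, 5 members were called here in the combination. NFKBIA and NFKBIE were among these 5 but were not under 0.05 in the authors' table.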

How the data were processed

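Per the labels' protocols, total RNA was depleted of ribosomal RNA (Ribo-Zero Gold) and read as stranded single-end libraries. Per the submitters' processing notes, Novoalign 2.08.01 aligned the reads to hg19 and DESeq2 1.4.5 compared the groups. The tool, strand setting and gene models of the counting were not given in the sources used here. The authors deposited raw counts and FPKM per gene, log2 fold changes and an adjusted p-value in 4 tables, per the file headers. The tables were joined by gene identifier, which kept 16608 of 17849 genes.

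Counts were fitted with edgeR 4.0.16 (R 4.3.3, limma 3.58.1): TMM scaling, filterByExpr (16320 genes tested), 4 group means, robust quasi-likelihood tests, and Benjamini-Hochberg adjustment at 0.05. The fit was also run on counts simulated with its own form and estimated spread, which cannot test whether that form holds for these libraries. The p-values weigh a difference against the spread between samples of the same treatment. That spread was estimated over all 4 treatments together and moderated over genes, so a library can change calls between groups it does not belong to. Counting depth, 881 to 3968 reads for NFKBIA and TNFAIP3 and 163 to 613 for the MIR146A host, limits the precision of the rarer members. The members and lists were chosen with earlier results of these data known. Besides the members, the text names all genes of lists of 5 or fewer, the called genes with the largest change in each direction in 1035 against DMSO from longer lists, and the 2 genes most correlated with each member. One gene that this rule names is not reported here. Alternatives were other scalings and filters, DESeq2 1.42.0, only the groups compared, a replicate block, each library left out and, for FPKM, TMM-scaled CPM per kilobase.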

Additional observations from a re-analysis of the deposited data

Results flagged for a closer look

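By the test of the interaction, 3 members were called: NFKBIA (log2 0.68), TNFAIP3 (0.53) and MIR146A (0.91). In these, the combination differed from 1035 by another amount than doxorubicin differed from DMSO. The members were selected on this result, so it is a description, and no explanation was tested. An end of exposure to 1035 and the lengths of culture cannot be told apart from doxorubicin here. With 2 libraries a group, no library could be tested for standing apart from its group.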

How the results depend on the processing

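No alternative reversed a called value. Of the members' log2 fold changes, 595 kept their side of the threshold, 14 gained a call and 11 lost one; of the named list genes, 1776 kept it, 16 gained and 68 lost. Genes called in doxorubicin against DMSO were 217, with 134 from only the groups compared and 33 to 1180 with a library left out. In the combination against 1035 they were 81, with 151 from only the groups compared and 30 to 143. In the interaction they were 3, with 16 under the replicate block and 1 to 239. Members called in doxorubicin against DMSO were 1, and 2 with library totals alone, with genes kept from a mean normalised count of 50 and in DESeq2 (TNFAIP3 in each), and 1 to 2 with a library left out. In the interaction they were 3, and 1 to 3.

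With a library left out, genes that rose in 1035 against DMSO were 4 to 8 adaptors and kinases, 0 to 2 LUBAC genes and 1 to 2 miR-146a targets, and 2 to 5 other inhibitors fell. In the combination against 1035, 0 to 1 adaptors, 0 to 1 other inhibitors, 0 to 1 atypical IkB genes and 2 to 8 target genes rose. In doxorubicin against DMSO, 0 to 2 adaptors (1 under the replicate block), 0 to 1 other inhibitors, 0 to 1 atypical IkB genes and 1 to 3 target genes rose. The causes were not tested.

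Samples that share a replicate number did not deviate together over all genes (correlations of -0.08 to 0.08 over 12067 genes). This cannot exclude a pairing that touches only some genes. Under the replicate block, 299 genes were called in doxorubicin against DMSO beside 217 in the main fit, and 16 in the interaction beside 3. The block changed the call of no member. Doxorubicin replicates differed most against sampling noise (chi-square per degree of freedom 5.44, against 1.96 in DMSO). With TMM-scaled CPM per kilobase, 6 of 28 group means moved by more than their SD from the deposited FPKM.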
